A study of Mus musculus with 1507 samples.

Results

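To separate differences between cells from the noise of the method, RamDA-seq profiles of single mouse ES cells sorted in G1 were set against profiles of a lysate pooled from cells of the same gate. RamDA-seq covers whole transcripts of the total RNA of a single cell, polyadenylated or not. The members were the 93 libraries of single G1 cells and the 9 libraries of pooled G1 lysate, chosen by the names of their columns, of 1507 samples in the series. For the lysate, 180 G1 cells were sorted into 1 tube of lysis buffer, and each well received an equal share that corresponded to the content of 1 average cell. The spread over wells was therefore technical, whereas the spread over cells held the technical part and the differences between cells together.

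All cells came from 5G6GR, a mouse ES line that carries a Gata6 transgene fused to the glucocorticoid receptor and is grown without feeders on gelatin in serum and LIF, with puromycin and blasticidin. Dexamethasone, which switches the transgene on, was not given to either group. Cells were stained with a Hoechst dye that binds DNA, and G1 was gated by DNA content, so G1 here is a DNA content and not a measured phase. Gata6 was read at 0.485 to 102 TPM in cells (median 52.1) and at 42.4 to 54.2 TPM in lysate wells (median 50.2), with the transgene included. The labels name no separate cultures within the G1 cells, and the wells are shares of 1 lysate, so each group counts as 1 sample and all differences in spread are described by a fixed size and not tested. Cells and lysate wells also stood in different plates, and plate and group cannot be told apart.

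ES cells in serum and LIF hold a shared core network (Pou5f1, Sox2) while other genes of the naive state and of early lineages go up and down from cell to cell. G1 is short in these cells, and genes of DNA replication and of mitosis are made in successive waves of the cycle. A pooled lysate keeps the mean of each gene and averages out any such difference. The level of a gene is given as TPM, a measure scaled to transcript length and to a fixed sum of 1000000 per library, so it holds no read depth and levels can be compared between genes. The spread is given as CV2, the squared ratio of the SD to the mean.

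The 12 listed core pluripotency genes were all measured, and each ES marker of the fixed marker list stood at 1 TPM or more in 93 of 93 cells and 9 of 9 wells. Among primitive endoderm markers besides Gata6, Gata4 reached 1 TPM in 49 cells and 6 wells, and Sox7 in 27 and 2. Sox17 reached it in 14 cells and 0 wells, Pdgfra in 16 and 0, and Dab2 in 19 and 3. Among trophoblast markers Elf5 reached 1 TPM in 51 cells and 6 wells, Gata3 in 4 and 1, and Hand1 in 2 and 1. Cdx2 reached it in 0 cells and 0 wells. The highest value of any of these in a cell was 10.6 TPM, for Gata4. Cells held 14576 to 19115 genes at 0.1 TPM or more (median 17240), against 17079 to 18181 genes in lysate wells (median 17937). The rRNA-like transcripts took 7.93 to 18.3% of TPM in cells (median 10.5%) and 11.2 to 12.1% in wells (median 11.8%). A pair of cells stood apart from the rest: their profiles correlated with the median profile at 0.777 and 0.780, against 0.802 for the next lowest cell and 0.864 for the median cell. Their summed TPM of the housekeeping list was 3926 and 5048, against 7998 in the lowest of the other cells. Their rRNA-like transcripts took 18.27% and 16.25% of TPM, and they held 15181 and 16469 detected genes. Without these 2 cells 384 genes were highly variable, by the rule given below, in place of 379, and 359 of these were shared. The paper left out 2 G1 samples as outliers before its cell cycle analysis. The labels do not name those samples, and all 93 cells were kept here.

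**Figure D1:**
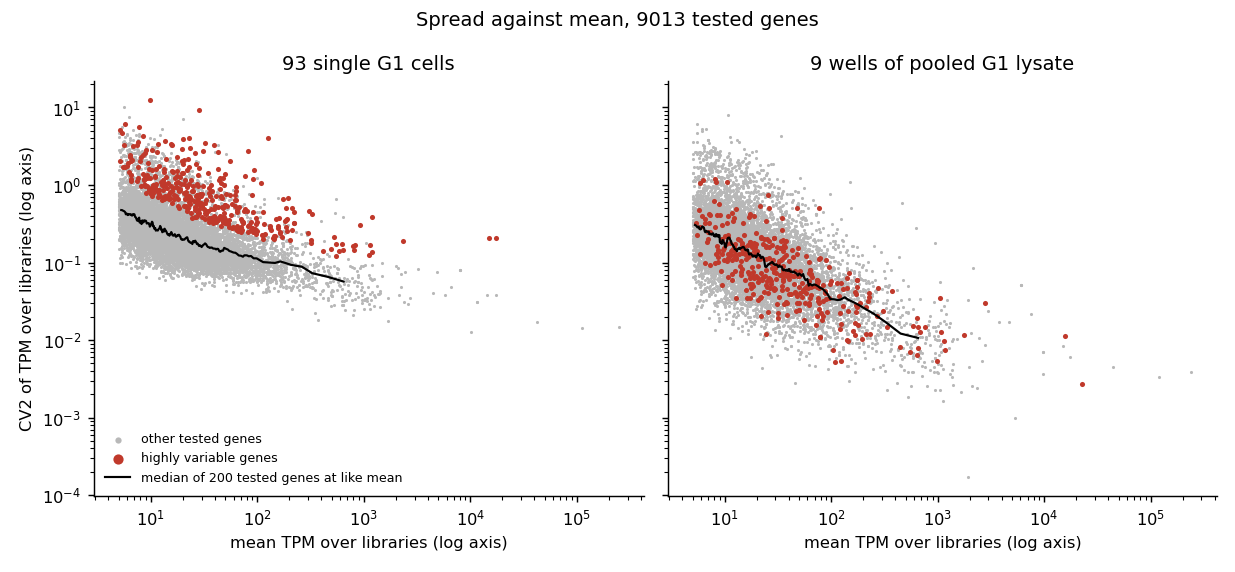
CV2 of TPM (log axis) against mean TPM (log axis) of the 9013 tested genes over 93 single G1 cells (left) and over 9 wells of pooled G1 lysate (right). Red points are the 379 highly variable genes, grey points the other tested genes, and the black line the running median; the median CV2 of all tested genes was 0.216 in cells and 0.124 in wells, and the gap between the lines widens towards abundant genes.

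Of 47643 genes, 9068 averaged 5 TPM or more in both groups, and 9013 of these had means within 2-fold of each other and were compared. The means of cells and wells lay close together: the median ratio of means, cells over wells, was 0.992, and 97.2% of the genes were within 1.5-fold. Of the 55 genes left out for their means, 29 were higher in cells and 26 in wells, and 5 were protein coding. The spread was larger in cells for 7438 genes (82.5%), with a median CV2 of 0.216 over cells and 0.124 over wells. At 5 to 10 TPM the median CV2 was 0.377 in cells against 0.241 in wells, and above 500 TPM it was 0.0495 in cells against 0.00880 in wells. Most of the spread of a weakly expressed gene was thus also seen between shares of 1 lysate, and little of the spread of an abundant one.

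A gene was called more variable in cells than in lysate wells when its CV2 over cells was at least 4 times that over its own wells and at least 4 times the running median CV2 of wells at a like mean. This held for 533 genes, 5.91% of those tested. A highly variable gene also had to exceed the running median of cells at its mean by at least 2 times, which left 379 genes, 4.21% of those tested. Phf10, Arhgap19 and Sycp3 lay just inside at 4.01 times the running median of wells, and Dlgap5 and Sgol2a, both genes of mitosis, just outside at 3.99 times. The share of highly variable genes was 2.14% at 5 to 10 TPM and 11.6% above 500 TPM, so abundant genes were called more often. Of the 379 genes, 288 were protein coding (3.70% of those tested), 16 lincRNA (11.8%), 16 snoRNA (10.5%) and 16 miRNA (8.16%). A further 9 were processed transcripts (14.1%) and 7 antisense (8.97%). Wells were noisy for miRNA and snoRNA genes, with a median CV2 of 0.922 and 0.731, against 0.116 for protein-coding genes.

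The highly variable genes were not one kind of pattern. Of the 379, 160 stood at 1 TPM or more in every cell, 180 had at least 1 cell at 0, and 10 were at 1 TPM in fewer than 50% of cells. For the median highly variable gene, 21 of the 93 cells held 50% of the summed TPM, against 31 cells for the median tested gene. For 31 genes this took 10 cells or fewer. These counts of genes were not set against all tested genes. For the median highly variable gene 19 cells lay above the highest well and 36 below the lowest. Neither number was taken over all tested genes. In the 10 named genes of smallest ratio, 1 to 20 cells lay above the highest well and 1 to 31 below the lowest. Counts of this kind given below for single genes have the same limit. Their rank correlation with the number of detected genes over the 93 cells had a median of 0.0774, against 0.117 over all tested genes. In absolute value it exceeded 0.3 for 14 of the 379, a count not made over all tested genes.

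**Figure D2:**
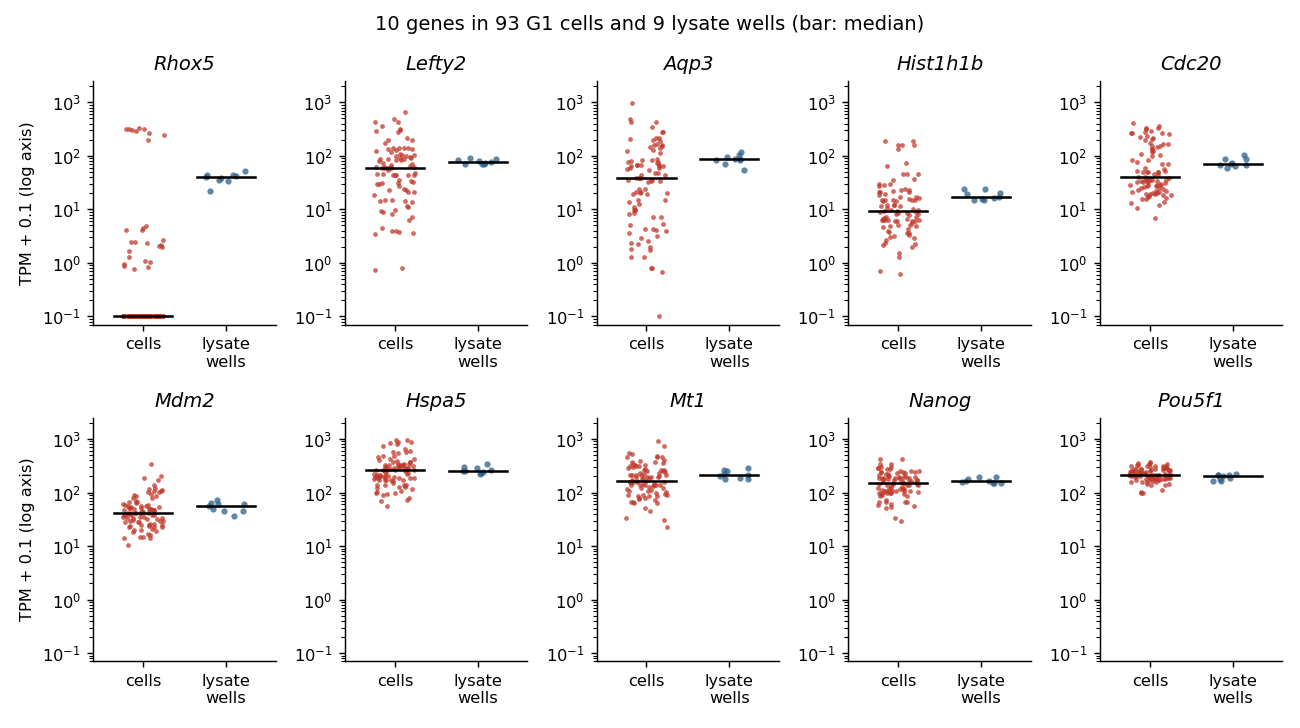
TPM + 0.1 (log axis) of 10 genes in each of 93 G1 cells (red, left in each panel) and 9 lysate wells (blue, right), with the median as a bar. Points are libraries; wells lie close to their median in each panel, whereas cells run from 0 to 338 TPM for Rhox5 and from 0.635 to 649 TPM for Lefty2.

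After the predicted gene Gm10800, Rhox5 had the largest spread of the named genes relative to wells. Rhox5 (chrX:37804842-37808876, mm10, + strand) encodes a homeobox protein of the reproductive homeobox cluster on the X chromosome. It ran from 0 to 338 TPM in cells with a median of 0, and from 21.9 to 51.6 TPM in lysate wells with a median of 40.7. Its CV2 over cells was 207.5 times that over its own wells and 95.4 times the running median of wells. All 9 wells held it and most cells did not: 65 of 93 cells were at 0, and 22 (23.7%, exact 95% interval 15.5 to 33.6%, counting error only) reached 1 TPM. The values fell into separate ranges, with 9 cells at 197 to 338 TPM and the next at 4.82 TPM. Those 9 cells were above every well and the other 84 below every well, and 5 cells held 50% of the summed TPM. The mean was 28.3 TPM over cells and 38.9 TPM over wells.

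Rhox5 was also under 1 TPM in most cells of sets that the comparison had not used. The counts below do not show whether its values fell into separate ranges there. It reached 1 TPM in 37 of 91 cells sorted in S, in 28 of 93 sorted in G2M and in 28 of 92 cells at 0 h of the differentiation course. On 4 further plates of undifferentiated ES cells it reached 1 TPM in 3 of 42 to 11 of 53 cells, and its median was 0 in each of these 7 sets. No highly variable gene followed it closely over the 93 G1 cells, the highest rank correlation being 0.34 with Nfu1, a gene of iron-sulfur cluster assembly. The germline list, to which Rhox5 belongs, had 4 of 5 tested genes highly variable, against 4.21% of all tested genes. The others were Tex19.1, Tdrd12 and Sycp3, of which Sycp3 lay just inside the limit, at 4.01 times the running median of wells. The germline count was 3 or 4 without 1 well in turn, and 1 to 7 over the 28 settings tried. Tex19.1 and Tdrd12 act in the control of transposons and Sycp3 is a protein of the meiotic chromosome axis. Tdrd12 was at 0 in 22 cells and reached 40.8 TPM, against 3.6 to 20.5 TPM in wells.

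**Figure D3:**
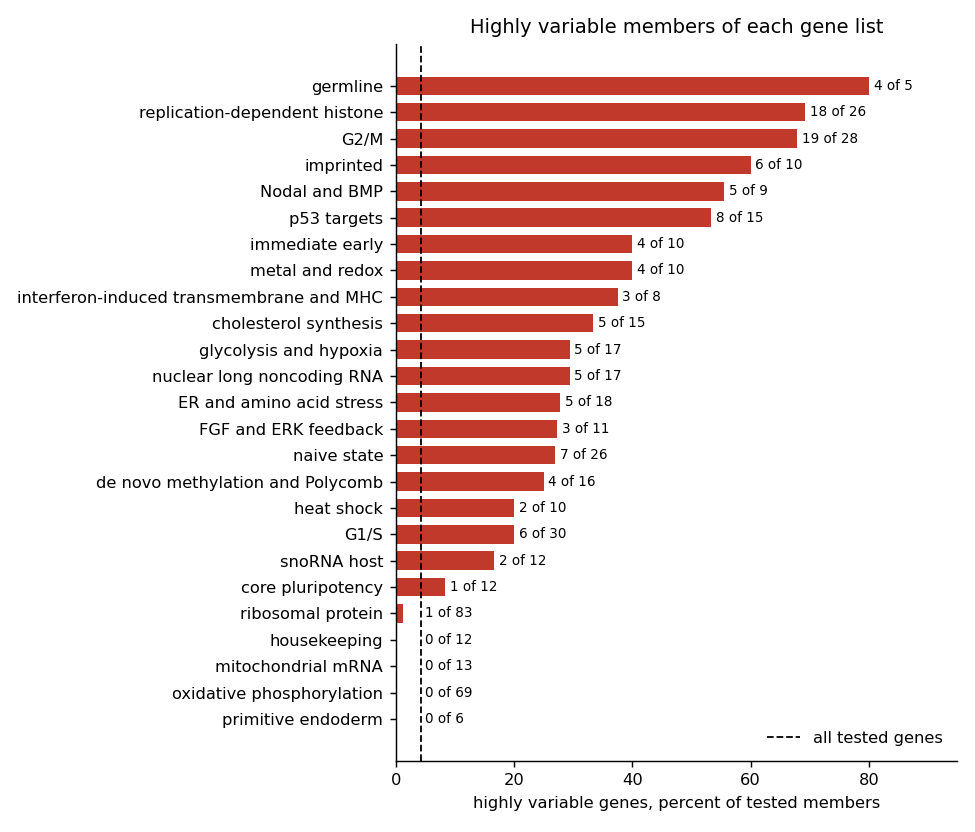
Highly variable genes as a percent of the tested members of each gene list with 5 or more tested members (bars, with counts), and the share over all 9013 tested genes (dashed line). The germline list is at 80% (4 of 5), replication-dependent histones at 69.2% (18 of 26), G2/M genes at 67.9% (19 of 28), and the oxidative phosphorylation, mitochondrial mRNA and housekeeping lists are at 0.

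Among the larger lists the replication-dependent histones stood highest, with 18 of 26 tested genes highly variable (69.2%, against 4.21% of all tested genes). Their median CV2 was 18.3 times the running median of wells, against 1.83 times over all tested genes. These genes supply histones for new chromatin in S phase, and most of their mRNAs end in a stem-loop and lack a poly(A) tail, so they are read by a total RNA method. The linker histone Hist1h1b ran from 0.529 to 188 TPM in cells (median 9.37) and from 14.7 to 24.1 TPM in wells (median 17.2). Of the 93 cells, 58 were below the lowest well and 18 above the highest, and 8 held 50% of the summed TPM. Hist1h1d ran from 0.607 to 226 TPM in cells (median 8.41) and from 11.2 to 21.7 TPM in wells (median 14.2). Hist1h1a, Hist1h1e, Hist1h2bn and Hist1h2ap had the same form, a cell median below the lowest well with 10 to 21 cells above the highest. Other named histone genes differed, with a cell median inside the well range. Hist2h2bb had a cell median of 48.2 TPM inside its well range of 30.6 to 68.8 TPM and 28 cells above it. The cell median was 21.7 TPM for Hist1h2bl (wells 11.1 to 68.8), 14.5 TPM for Hist1h2bk (wells 2.35 to 42.9) and 31.3 TPM for Hist1h2al (wells 10.8 to 52.1). Histone genes have near-identical copies, and reads may be split between them, so single core histone genes are uncertain. Without 1 well in turn 17 to 19 histone genes were highly variable, and over the 28 settings tried 8 to 24.

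Summed over the list, histone TPM ran from 136 to 5170 in G1 cells, with a median of 408 and a 90th percentile of 1313, and from 489 to 703 in lysate wells, with a median of 555. The CV2 of this sum was 1.75 over cells and 0.0154 over wells. Cells sorted in S had a median of 824 and ran from 163 to 5715, and cells sorted in G2M had a median of 352. The range of S cells covered nearly all of the range of G1 cells, and the highest G2M cell stood at 3888. The ranges therefore do not assign the highest G1 cells to a phase. The genes moved together, with a median rank correlation of 0.47 over the pairs of the 18 genes, against 0.02 over all pairs of the 379 genes. All rank correlations are over the same 93 cells, which differ in the number of detected genes, and are given as a description; the genes most like a named gene were ranked among the highly variable genes.

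G2/M genes, which drive entry into and passage through mitosis, had 19 of 28 tested members highly variable (67.9%, against 4.21% of all tested genes). The median of the list was 6.17 times the running median of wells. Cdc20, the mitotic activator of the anaphase-promoting complex, ran from 6.88 to 420 TPM in cells (median 40.2) and from 59.5 to 103 TPM in wells (median 69). Its mean was 90.6 TPM over cells and 75.8 TPM over wells, and 15 cells held 50% of the summed TPM. Cdc20 was above the highest well in 28 cells and below the lowest in 58, so few cells lay within the range of the wells. Ccnb1, cyclin B1, ran from 4.85 to 218 TPM in cells (median 57.4) and from 42.9 to 64.3 TPM in wells (median 57.7). Plk1, a mitotic kinase, ran from 0 to 143 TPM in cells (median 8.22) and from 8.08 to 27.5 TPM in wells (median 13.2). Cenpa, the histone H3 variant of centromeres, reached 228 TPM in a cell and 61.6 TPM in a well. Top2a, Tpx2, Hmmr, Ccnb2, Birc5, Aurka and Ube2c were also highly variable. Over the 28 settings tried the G2/M count lay between 3 and 24, lowest with a ratio of at least 9.

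Summed G2/M TPM ran from 242 to 2392 in G1 cells (median 680) and from 642 to 766 in lysate wells (median 682). Cells sorted in G2M had a median of 3199 and a 10th percentile of 2003, above the 90th percentile of 1629 in G1 cells. Most G1 cells were therefore below most G2M cells, with an overlap at the upper end. Cdc20 had its highest rank correlations with Cenpa at 0.78, Mki67 at 0.76 and Tpx2 at 0.75, and the pairs of the 19 genes had a median of 0.57. Mki67 encodes the proliferation antigen Ki-67.

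**Figure D4:**
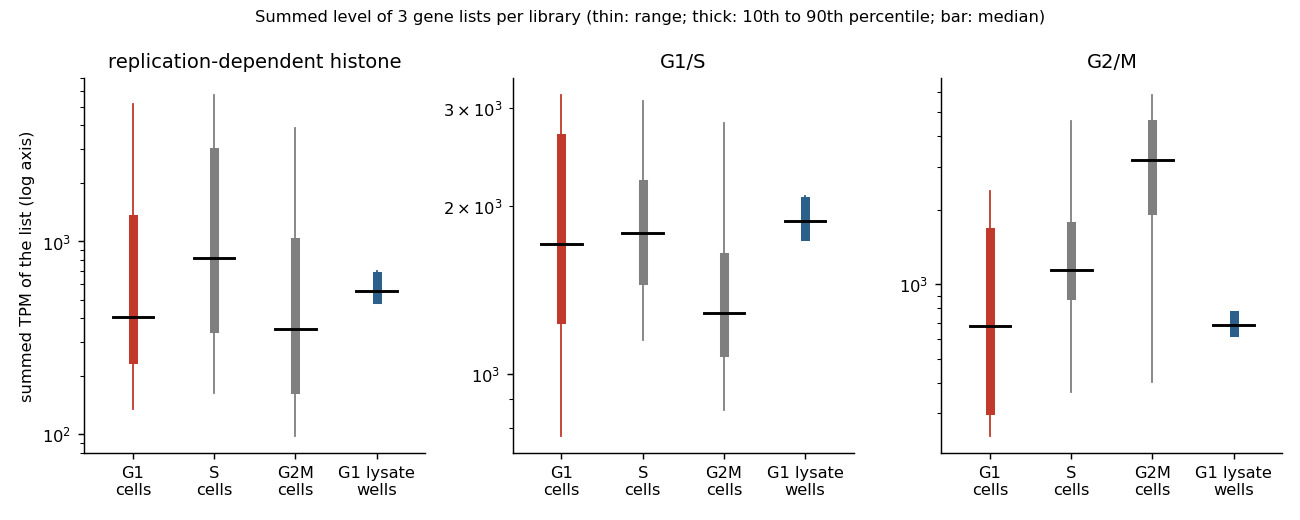
Summed TPM (log axis) per library of the replication-dependent histone, G1/S and G2/M lists in G1 cells, S cells, G2M cells and G1 lysate wells; thin lines give the range, thick lines the 10th to 90th percentile and bars the median. Lysate wells are narrow in each panel (G2/M 642 to 766), G1 cells wide (242 to 2392), and G2M cells have the highest G2/M median at 3199.

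The G1/S list, genes of replication licensing and nucleotide supply, had a smaller share, 6 of 30 tested genes (20%, against 4.21% of all tested genes). Rrm2, a subunit of ribonucleotide reductase, ran from 1.43 to 252 TPM in cells (median 43.6) and from 50.6 to 98.8 TPM in wells (median 69.4). Uhrf1, which binds hemimethylated DNA at replication forks, ran from 14.7 to 462 TPM in cells (median 147) and from 124 to 219 TPM in wells (median 166). The other members were Ccnd1, Mcm10, Cdc25a and Cdc6. Rrm2 correlated with Cdc6 at 0.80 and with Mcm10 at 0.75, and the pairs of the 6 genes had a median of 0.59. The summed G1/S level correlated with the summed histone level at 0.33, and the summed histone level with the summed G2/M level at 0.42. Hist1h2ap and Rrm2 correlated at 0.57, and Hist1h1b and Cdc20 at -0.16. Replication and mitotic genes overlapped in part: Top2a, listed under G2/M, was the third closest gene to Rrm2 at 0.67, and Ccnb1 correlated with Rrm2 at 0.39, whereas Cdc20 correlated with Rrm2 at 0.09.

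**Figure D5:**
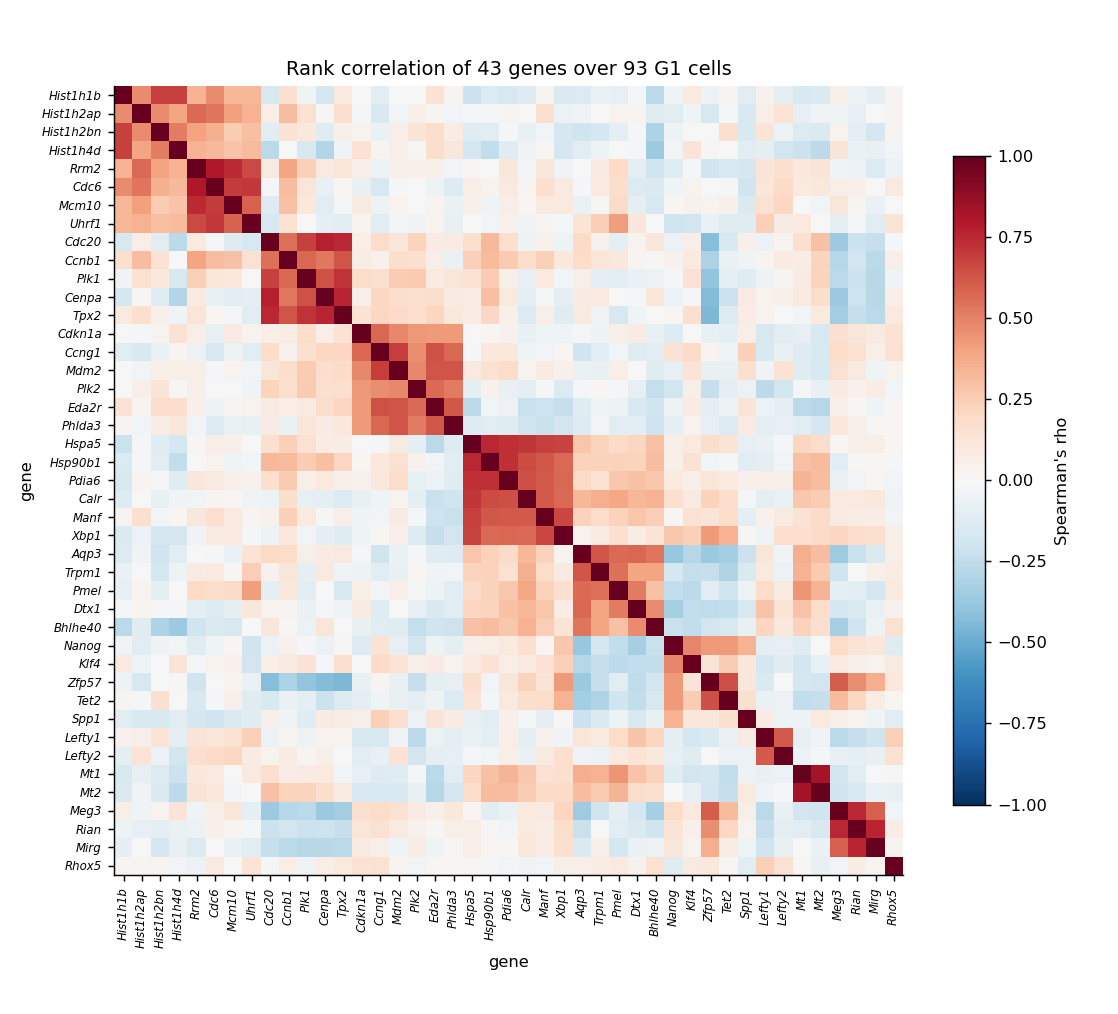
Spearman's rank correlation (colour, from -1 to 1) of 43 genes over the 93 G1 cells, with genes in the same order on both axes. Blocks of high correlation are seen for histones, G1/S genes, G2/M genes (Cdc20 with Cenpa 0.78), p53 targets, Hspa5 with Hsp90b1, Pdia6, Calr, Manf and Xbp1 (0.68 to 0.76), Aqp3 with Trpm1 (0.63), Mt1 with Mt2 (0.83), and Rian with Meg3 and Mirg (0.76 each).

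p53 targets, which act in growth arrest and apoptosis after DNA damage, had 8 of 15 tested genes highly variable (53.3%, against 4.21% of all tested genes). Mdm2, the ubiquitin ligase that degrades p53, ran from 10.4 to 336 TPM in cells (median 41.7) and from 35.9 to 72.1 TPM in wells (median 55.3). Cdkn1a, the kinase inhibitor p21, ran from 0 to 127 TPM in cells (median 12.4) and from 9.92 to 24.5 TPM in wells (median 17.3). Plk2, a polo-like kinase, ran from 0 to 101 TPM in cells (median 4.24), against 6.36 to 17.8 TPM in wells (median 12.5), and 7 cells held 50% of its summed TPM. Ccng1, Trp53inp1, Phlda3, Eda2r and Btg2 were the other members. The pairs of the 8 genes had a median rank correlation of 0.48 and a lowest one of 0.23, so every pair ran in the same direction. Cdkn1a had its highest correlation with Ccng1, at 0.58, followed by Dhx16 at 0.48 and Mdm2 at 0.48. Without 1 well in turn 7 or 8 of the genes were highly variable, and over the 28 settings tried 3 to 8.

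Nodal and BMP signalling acts between cells of the early embryo, and Lefty1 and Lefty2 are secreted inhibitors of Nodal that its own pathway induces. In this list 5 of 9 tested genes were highly variable (55.6%, against 4.21% of all tested genes). Lefty2 (chr1:180893108-180899103, + strand) ran from 0.635 to 649 TPM in cells (median 59.7) and from 69.6 to 90.6 TPM in wells (median 76.1). Its CV2 was 1.56 over cells and 0.0109 over wells, a ratio of 143. Few cells lay within the range of the wells, since 55 were below it and 30 above. Lefty1 (chr1:180935022-180938400, + strand) ran from 0 to 244 TPM in cells (median 19.3) and from 28.4 to 48.5 TPM in wells (median 37.4). These neighbouring genes correlated at 0.62, and the next gene after Lefty2 was Spsb1, at 0.38 with Lefty1. Bmp4, a BMP ligand, ran from 0.258 to 118 TPM in cells (median 22.5), against 25.3 to 42 TPM in wells (median 32). Id1, a BMP target, and Smad7, an inhibitor of receptor signalling, were the remaining members. Over the 5 genes the median pair correlation was 0.11, so the Lefty genes moved as a pair apart from the others.

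The endoplasmic reticulum (ER) stress response raises folding capacity when unfolded protein builds up there, and the amino acid response acts when amino acids run short. The list of both had 5 of 18 tested genes highly variable (27.8%, against 4.21% of all tested genes). Hspa5, the chaperone BiP, ran from 56.8 to 967 TPM in cells (median 264) and from 222 to 345 TPM in wells (median 258). It averaged 303 ± 205 TPM over cells (SD, n = 93) and 267 ± 38.2 TPM over wells (SD, n = 9), and every cell expressed it. Herpud1, Xbp1, Ddit3 and Chac1 were the other listed members. The 5 listed genes did not move as a block, with a median pair correlation of 0.07 and a lowest of -0.28. The highly variable genes most like Hspa5 over cells were Hsp90b1 at 0.76, Pdia6 at 0.73, Calr at 0.72, Manf at 0.69 and Xbp1 at 0.68. Hsp90b1 and Calr are chaperones of the reticulum, Pdia6 forms disulfide bonds, Manf is a secreted factor held there, and Xbp1 is a transcription factor of the response. Hsp90b1 ran from 17.5 to 573 TPM in cells (median 157), against 137 to 218 TPM in wells (median 179). The summed level of the stress list correlated with the rRNA-like share of a cell at -0.36, and the part of that share in these values was not tested.

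The promoters of Hspa5, Hsp90b1, Calr and Pdia6 are shown because they hold the letters of the ER stress element, for which they were picked, and moved together. The element is CCAAT and CCACG with 9 bases between them. Both strands were searched in RefSeq windows of 300 bases (GRCm38.p6), from 250 bases before to 50 after each gene's start, and the matches are in capitals. The element was found in 39 of 32851 windows (0.119%) and in 12 of the 6293 tested genes with a window, and these 4 were the highly variable ones among the 12. Of the 5 highly variable genes of the stress list, Hspa5 alone held it, and Xbp1, which correlated with Hspa5 at 0.68, did not. Manf, which also correlated with Hspa5, had no window and was not searched. The windows are chr2:34771840-34772139, + strand for Hspa5; chr10:86705395-86705694, - strand for Hsp90b1, which holds 2 matches; chr8:84846882-84847181, - strand for Calr; and chr12:17266339-17266638, + strand for Pdia6. Each is printed 5′ to 3′ on the strand of its gene. A match of letters is no evidence of binding, and CCAAT alone was in 37.4% of all windows and 40.1% of those of tested genes.
Hspa5: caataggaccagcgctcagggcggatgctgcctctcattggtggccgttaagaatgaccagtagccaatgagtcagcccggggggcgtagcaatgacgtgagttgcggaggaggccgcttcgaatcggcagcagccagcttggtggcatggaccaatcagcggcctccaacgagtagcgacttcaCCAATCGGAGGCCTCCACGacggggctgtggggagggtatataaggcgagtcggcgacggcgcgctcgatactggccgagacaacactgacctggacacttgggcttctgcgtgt
Hsp90b1: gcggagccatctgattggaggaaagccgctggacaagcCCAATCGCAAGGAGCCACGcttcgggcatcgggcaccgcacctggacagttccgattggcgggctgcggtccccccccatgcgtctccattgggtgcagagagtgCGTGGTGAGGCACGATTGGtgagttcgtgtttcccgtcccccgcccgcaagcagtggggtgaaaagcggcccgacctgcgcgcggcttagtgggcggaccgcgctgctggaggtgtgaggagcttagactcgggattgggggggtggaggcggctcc
Calr: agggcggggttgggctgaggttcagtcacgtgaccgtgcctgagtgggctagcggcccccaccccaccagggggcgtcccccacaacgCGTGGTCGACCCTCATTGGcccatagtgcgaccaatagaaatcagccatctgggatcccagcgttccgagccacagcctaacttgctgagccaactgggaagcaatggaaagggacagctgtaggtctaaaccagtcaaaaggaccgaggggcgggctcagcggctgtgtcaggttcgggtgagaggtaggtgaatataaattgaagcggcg
Pdia6: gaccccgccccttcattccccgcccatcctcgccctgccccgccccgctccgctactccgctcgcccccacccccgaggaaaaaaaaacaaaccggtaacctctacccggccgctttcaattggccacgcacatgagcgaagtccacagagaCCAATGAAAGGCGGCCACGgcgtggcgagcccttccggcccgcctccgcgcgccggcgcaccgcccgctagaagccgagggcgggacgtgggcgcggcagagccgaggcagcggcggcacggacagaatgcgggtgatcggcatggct

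For the cell cycle groups, windows of Hist1h1b and Hist1h4d are shown with the TATAAA letters of a TATA box in capitals, and those of Cdc20 and Cenpa with TTTGAA, the letters of the cell cycle homology region. TATAAA, on either strand, was in 13 of the 16 highly variable histone genes with a window and in 0 of the 16 highly variable G2/M genes with one, against 13.6% of all windows and 6.31% of those of tested genes. TTTGAA was in 13 of those 16 G2/M genes and 7 of those 16 histone genes, against 17.9% of all windows and 11.9% of those of tested genes. CCAAT was in 14 of 16 in each group. The windows are chr13:21780576-21780875, - strand for Hist1h1b, chr13:23581318-23581617, + strand for Hist1h4d, chr4:118437294-118437593, - strand for Cdc20 and chr5:30666636-30666935, + strand for Cenpa. The first base of the match lies at position -28, -32, -18 and 17 of the start in that order.
Hist1h1b: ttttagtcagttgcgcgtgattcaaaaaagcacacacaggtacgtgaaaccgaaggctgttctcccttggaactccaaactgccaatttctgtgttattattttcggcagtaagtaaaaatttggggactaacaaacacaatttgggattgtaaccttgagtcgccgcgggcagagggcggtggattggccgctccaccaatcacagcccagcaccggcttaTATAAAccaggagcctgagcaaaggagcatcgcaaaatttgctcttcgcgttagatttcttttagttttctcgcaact
Hist1h4d: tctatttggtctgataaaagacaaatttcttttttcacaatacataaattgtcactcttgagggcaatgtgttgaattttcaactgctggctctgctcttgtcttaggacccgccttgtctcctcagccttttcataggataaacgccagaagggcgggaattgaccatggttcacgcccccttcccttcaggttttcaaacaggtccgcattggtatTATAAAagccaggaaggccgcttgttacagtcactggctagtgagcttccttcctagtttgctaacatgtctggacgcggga
Cdc20: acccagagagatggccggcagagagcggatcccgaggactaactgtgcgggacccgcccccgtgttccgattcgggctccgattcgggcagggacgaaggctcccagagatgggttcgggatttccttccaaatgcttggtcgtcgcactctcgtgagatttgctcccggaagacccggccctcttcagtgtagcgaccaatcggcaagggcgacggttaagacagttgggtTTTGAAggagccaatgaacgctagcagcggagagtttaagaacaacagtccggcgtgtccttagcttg
Cenpa: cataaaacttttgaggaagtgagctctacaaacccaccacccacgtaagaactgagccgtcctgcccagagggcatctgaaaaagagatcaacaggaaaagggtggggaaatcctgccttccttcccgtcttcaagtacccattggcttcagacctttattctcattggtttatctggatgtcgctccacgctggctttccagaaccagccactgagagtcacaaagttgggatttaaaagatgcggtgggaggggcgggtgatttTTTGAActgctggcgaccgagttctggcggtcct

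Metallothioneins bind zinc and other metals, and Mt1 and Mt2 lie next to each other on chromosome 8. Mt1 ran from 22.5 to 917 TPM in cells (median 165) and from 178 to 291 TPM in wells (median 212). Mt2 ran from 28.4 to 536 TPM in cells (median 167) and from 189 to 340 TPM in wells (median 220). Their rank correlation over cells was 0.83, among the closest of named pairs. Txnip, an inhibitor of thioredoxin, ran from 4.00 to 696 TPM in cells (median 68.5) and from 69.2 to 144 TPM in wells (median 85). With Hmox1, heme oxygenase, 4 of 10 tested genes of the metal and redox list were highly variable (40%, against 4.21% of all tested genes). The Mt1 window (chr8:94178839-94179138, + strand) holds 3 matches to TGCACNC or TGCGCNC, the core of the metal response element, in capitals, and 25.7% of all windows and 38.4% of those of tested genes hold at least 1.
Mt1: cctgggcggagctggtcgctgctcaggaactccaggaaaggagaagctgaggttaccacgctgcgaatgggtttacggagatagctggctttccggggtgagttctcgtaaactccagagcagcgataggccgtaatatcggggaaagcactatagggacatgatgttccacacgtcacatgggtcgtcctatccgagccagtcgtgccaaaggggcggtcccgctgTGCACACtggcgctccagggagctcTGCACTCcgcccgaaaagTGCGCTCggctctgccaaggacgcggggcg

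Of 12 core pluripotency genes tested, 1 was highly variable (8.33%, against 4.21% of all tested genes), a share near the background. The list's median CV2 was 1.13 times the running median of cells. Nanog was that gene, at 28.9 to 425 TPM in cells (median 151) and 149 to 197 TPM in wells (median 165). Its CV2 was 21.1 times that of its own wells, and 46 cells lay below the lowest well. Pou5f1, the gene of Oct4, ran from 96.5 to 377 TPM in cells (median 216) and from 164 to 224 TPM in wells (median 207), and was not called. Its spread was 0.795 times the running median of cells at a like level, so it was below that of a typical gene. Sox2 ran from 19.3 to 180 TPM in cells (median 70.6) and from 64 to 79.2 TPM in wells (median 70.2), and was not called. No cell lacked Nanog, Pou5f1 or Sox2.

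Naive state genes had 7 of 26 tested members highly variable (26.9%, against 4.21% of all tested genes), and they moved largely apart, with a median pair correlation of 0.10. Spp1, the secreted protein osteopontin, ran from 0.874 to 779 TPM in cells (median 178) and from 160 to 226 TPM in wells (median 194). Trh, the precursor of thyrotropin-releasing hormone, ran from 15.8 to 674 TPM in cells (median 156) and from 141 to 202 TPM in wells (median 172). Dppa5a, Socs3, Tet2, Nr0b1 and Klf4 were the others. Among highly variable genes Nanog was most like Klf4 at 0.49, Zfp57 at 0.43 and Tet2 at 0.42, and with Zfp42, a naive gene that was not called, it correlated at 0.49. Zfp57, a zinc finger protein that protects imprints, ran from 15.2 to 470 TPM in cells (median 170), against 146 to 216 TPM in wells (median 185). It correlated with Tet2 at 0.65, with Meg3 at 0.60 and with Cdc20 at -0.43. Dnmt3b, a de novo DNA methyltransferase of the primed state, ran from 0 to 65.2 TPM in cells (median 10.5) and from 7.55 to 25.4 TPM in wells (median 14.6). Its highest correlation was 0.37, with Upp1.

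Aqp3, a channel for water and glycerol, had the third largest spread of the named genes, at 0 to 964 TPM in cells (median 37.9) and 53.8 to 116 TPM in wells (median 85.7). In cells 54 values lay below the lowest well and 20 above the highest, and 10 cells held 50% of the summed TPM. The genes most like it were Trpm1 at 0.63, Dtx1 at 0.58, Pmel at 0.56, Rab3il1 at 0.56 and Ahnak2 at 0.55, and Bhlhe40 was at 0.54. Trpm1 and Pmel are best known from melanocytes and retina, where they encode a cation channel and a protein of the pigment granule. Trpm1 ran from 0 to 182 TPM in cells (median 15.3), against 18.5 to 57.4 TPM in wells (median 34). Pmel ran from 0.549 to 179 TPM in cells (median 10.5), against 12.6 to 29 TPM in wells (median 23.7). Aqp3 ran against Nanog at -0.38, and among the highly variable genes Rab3il1 was the one least like Nanog at -0.49.

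Imprinted genes are expressed from 1 parental allele, and 6 of 10 tested were highly variable (60%, against 4.21% of all tested genes). Of these, 3 lie in the Dlk1-Dio3 cluster on chromosome 12, which makes long noncoding RNAs and small RNAs from the maternal allele. Rian ran from 0 to 1009 TPM in cells (median 271) and from 225 to 467 TPM in wells (median 361). Meg3 ran from 0.0222 to 226 TPM in cells (median 48.8) and from 61.9 to 86.2 TPM in wells (median 68.7). Rian correlated with Mirg at 0.76 and with Meg3 at 0.76. Gm24564, a snoRNA gene inside Rian, ran from 0 to 261 TPM in cells and from 0 to 123 TPM in wells, so its groups overlapped widely. Grb10, Peg10 and Igf2r, which lie elsewhere, were also highly variable.

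Signalling and metabolic groups had shares between those of the histones and the 4.21% of all tested genes. Of 10 immediate early genes 4 were highly variable, among them Fos, at 0 to 73.6 TPM in cells (median 8.91) and 13.5 to 26.9 TPM in wells (median 18.6). Of 11 genes of FGF and ERK feedback 3 were, among them Spry4, an inhibitor of the pathway, at 0 to 102 TPM in cells (median 10.2) and 14.7 to 27.7 TPM in wells (median 19.9). Cholesterol synthesis had 5 of 15 (33.3%), among them Insig1 and Hmgcs1, with a median pair correlation of 0.51. Glycolysis and hypoxia had 5 of 17 (29.4%), with Slc2a3, a glucose transporter, at 49.2 to 791 TPM in cells and 194 to 351 TPM in wells. The interferon-induced transmembrane and MHC list had 3 of 8, Ifitm1, Ifitm3 and B2m. Ifitm3 ran from 0 to 167 TPM in cells (median 12.3) and from 12.3 to 30.4 TPM in wells (median 24.4).

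Some noncoding and repeat-like genes had wide spreads that are uncertain. Gm10800 and Gm10801, neighbouring predicted genes on chromosome 2, correlated at 0.81, and Gm10800 ran from 0 to 1725 TPM in cells (median 39.1) and from 25.6 to 185 TPM in wells (median 58.1). Gm10801 was no longer called without lysate well 2, 5 or 9. Gm42418, rRNA-like and on chromosome 17, ran from 35.7 to 3817 TPM in cells (median 1093) and from 1450 to 2019 TPM in wells (median 1810). It correlated with the rRNA-like share of a cell at 0.77. Gm43956 is annotated as antisense, and counting did not use strand, so it cannot be told from its partner. Malat1, a nuclear RNA of speckles, ran from 241 to 1942 TPM in cells (median 795) and from 836 to 1031 TPM in wells (median 1008). Neat1, the RNA of paraspeckles, ran from 10.9 to 216 TPM in cells (median 61.2) and from 32.7 to 138 TPM in wells (median 70.9). It was not called, since its CV2 was 1.73 times that of its own wells, although 6.52 times the running median. Its isoforms differed in the call when taken alone. The short Neat1-002 was highly variable, at 5.45 times its own wells, and the long Neat1-001 was not, at 2.48 times. Their CV2 over cells was close, at 0.680 and 0.653, and the calls parted on the CV2 over own wells, 0.125 and 0.264. Against the running median of wells the long isoform stood higher, at 11.3 times against 5.58. The paper states that the short isoform lies wholly inside the long one and that both were inaccurately quantified in bulk data. The difference between them was not tested.

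Other lists had few or no highly variable genes. None of 69 oxidative phosphorylation genes, 13 mitochondrial mRNAs, 12 housekeeping genes and 6 primitive endoderm genes was highly variable, and 1 of 83 ribosomal protein genes was, Rpl10l, against 4.21% of all tested genes. At that share the shorter of these lists would hold few calls or none, so their counts of 0 are near the background. Against wells at a like level the median ratio was 6.78 for mitochondrial mRNAs, 4.37 for housekeeping and 3.74 for primitive endoderm genes. It was 3.25 for ribosomal protein and 1.745 for oxidative phosphorylation genes, against 1.83 over all tested genes. That ratio rose with level, to 3.54 at 100 to 500 TPM and 4.84 above 500 TPM, so 1.83 is no baseline for abundant genes. Against cells at a like mean the medians were 1.24 for mitochondrial mRNAs, 0.941 for housekeeping and 1.79 for primitive endoderm genes. They were 0.653 for ribosomal protein and 0.739 for oxidative phosphorylation genes. The more variable call alone, which does not set a gene against other cells, was met by 7 mitochondrial mRNAs and 6 housekeeping genes, so the counts of 0 rest on the second limit. Over the 28 settings tried the counts reached up to 11 mitochondrial mRNAs, 4 housekeeping and 3 oxidative phosphorylation genes. Gnb2l1, a ribosome-bound scaffold, ran from 610 to 2199 TPM in cells (median 1441) and from 1226 to 1621 TPM in wells (median 1458). Rnf126, a ubiquitin ligase, had the smallest ratio of the named genes, at 3.48 to 19.98 TPM in cells (median 12.0) and 6.61 to 14.3 TPM in wells (median 10.7). Its CV2 over cells was 0.366 times the running median of wells. Sart1, Ndufs4, Scaf1 and Cdk13 were alike, each at 1 TPM or more in 93 of 93 cells. The 2-cell-like list had no gene at the level compared, and Zscan4b to Zscan4f, Tcstv1, Tcstv3 and Zfp352 were listed at 0 in every cell and well.

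In position, 83 of the 379 highly variable genes (21.9%) had another one within 100 kb, against 922 of the 9013 tested genes (10.2%) with a highly variable gene that near. Chromosome 13, with the large histone cluster, held 31 of them (8.18%) and 309 of the tested genes (3.43%). Chromosome 12, with the Dlk1-Dio3 cluster, held 20 (5.28%) and 292 of the tested genes (3.24%), and the X chromosome 13 (3.43%) and 266 of the tested genes (2.95%).

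The spread of the same genes was then read in ES cells that the comparison had not used. Of the 379 genes, 368 averaged enough in cells sorted in S to be read, and 314 (85.3%) had a CV2 at least 2 times the running median there, against 16.7% of all genes read. In cells sorted in G2M it was 315 of 372 (84.7%, against 16.7%), and at 0 h of the differentiation course 265 of 350 (75.7%, against 16.0%). On the 4 further plates it was 238 of 351 (67.8%, against 15.7%) on B1, 231 of 356 (64.9%, against 16.1%) on B2, 234 of 356 (65.7%, against 15.7%) on E1 and 232 of 353 (65.7%, against 16.1%) on E2. These shares left out 15 libraries with 7071 or fewer detected genes, and with those in place were 53.9% on B1, 39.4% on B2 and 62.8% on E1. In all 7 sets 139 of the genes (36.7%) passed, against 601 of all tested genes (6.67%). Lysate wells were not used for those sets, so the technical part of their spread was not taken off. The 4 further plates gave 39 to 53 cells each, and the S, G2M and 0 h sets 91 to 93. The paper states that its libraries for plate effects were made with a changed version of the protocol. The shares on these plates are therefore not like for like with the others, and the part of protocol was not tested.

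Rhox5, Aqp3, Lefty1, Lefty2, Mdm2, Mt1, Txnip, Rian, Meg3 and the named histone genes passed in all 7 sets. Nanog passed in 2 of 7, S and G2M cells, with 2.52 and 2.30 times the running median there. In none of the 7 sets did 18 genes pass, among them Birc5, Kif11 and Ccna2 of mitosis, Mcm10 of replication and P4hb, a disulfide isomerase. Birc5 ran from 0.586 to 76.9 TPM in G1 cells (median 12.8), against 10.2 to 25.8 TPM in wells (median 17.2).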

How the data were processed

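Total RNA of single sorted cells, and of shares of a pooled lysate, was read by RamDA-seq (single reads, NextSeq 500). The authors trimmed reads, quantified GENCODE vM9 transcripts with sailfish without strand, and deposited TPM per transcript, scaled to 1000000 per library; the submitters' processing notes name build mm10. TPM hold no read depth, so the depth is unknown; genes at 0.1 TPM or more stood in for it. 0 table columns matched no sample.

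TPM were summed per gene. Genes with a mean of at least 5 TPM in both groups and means within 2-fold were compared by CV2 (SD over mean, squared) against their own wells and against a running median of 200 genes. No p-values were computed, since each group is 1 sample; 102 libraries were compared. The members, gene lists and limits were chosen with earlier results of these data known. Named genes were the 20 with the largest ratio to the running median of wells among highly variable genes of at least 10 TPM in both groups, the 10 with the smallest, list members, the 5 genes of highest rank correlation with chosen genes, and genes the study discusses. Mean and spread of other sets were taken from cells with at least 10000 detected genes, which left out 15 libraries.

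In simulated data of 11698 genes, 0.0667% of 8989 unchanged tested genes were called highly variable, and 268 were called more variable. Highly variable calls were made for 28% of 50 genes with a CV2 raised 2 times, 94% at 4 times and 100% at 8 and 16 times. Raised genes were drawn from those with a mean of at least 10 TPM in wells. Unchanged genes were drawn at the running medians of cells and wells, with no scatter between genes. The simulation therefore gives no rate of false calls for the real data. Promoter windows of RefSeq were matched for 230 of 288 protein-coding highly variable genes (79.9%) and 6293 of 7775 tested (80.9%); with under 80% matched, motif shares over the whole set are void and not given. Python 3.11.15, NumPy 2.4.6, SciPy 1.17.1, pandas 2.3.3 and matplotlib 3.10.9 were used. Alternatives covered the transcript level, mean and ratio limits, noise from 10 pg RNA wells, log2 scales, rescaling and leaving out cells or wells. Count tables, C1 and large-volume libraries, and the time course beyond 0 h were not used here.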

Additional observations from a re-analysis of the deposited data

Results flagged for a closer look

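Of 32 values looked at over the 9 lysate wells, 2 had a lowest or highest well that stood apart from the others, by a gap of over 0.493 of the whole range (chance alone gives about 1 in 20). Lysate well 3 had 17079 detected genes, against 17733 to 18181 in the other wells. Gm10801 was at 74.4 TPM in the same well, against 3.25 to 38.4 TPM in the others. Without well 3, 390 genes were highly variable, 353 of them among the 379.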

How the results depend on the processing

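No paired analysis was possible because cells and lysate wells share no replicate and no test was made. Over the 28 settings tried, 379 highly variable and 533 more variable genes moved by over 1.5 times under these. With the running median of wells alone there were 1103 highly variable and 1377 more variable genes, and with each gene's own wells alone 1519 more variable. With a ratio of at least 2 there were 802 and 2274, and with one of at least 9 there were 89 and 91. On the log2(TPM + 0.1) scale there were 772 and 1126, and with a mean of at least 20 TPM 235 were highly variable. Leaving out 1 well in turn gave 380 to 403 highly variable and 511 to 604 more variable genes. With noise from the wells of 10 pg ES RNA 339 genes were highly variable, and 237 of the 379 (62.5%) were among them. With median-of-ratios scaling it was 464. Without each gene's highest cell 285 genes were highly variable, and 281 of the 379 (74.1%) were among them. At the level of single transcripts 219 of the 379 (57.8%) had a highly variable transcript. On the log2(TPM + 1) scale 268 of the 379 (70.7%) were called. Settings chosen after seeing the data left out the 9 cells with the most detected genes (379 highly variable), the 2 cells apart from the rest (384) or small RNA genes (362). Of 784 counts of gene lists, 680 were within 1.5 times of those given and 104 further off. Among the 20 most variable named genes, Gm10801, Gm24564, Gm10800, Gm43956, Hist1h2bl, Hist1h2bk and Hist1h2al lost the call under at least 1 setting, and Hist1h2ap, Hist1h1d and Hist1h1b fell under the limit of 20 TPM. Plate and group cannot be told apart, and depth is unknown.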
